A study of Mus musculus with 4 samples.

Results

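The regions described here are the ARID1A peaks on mouse chromosome 15 that lie outside the stretch around Myc, in 266-6 cells, a mouse pancreatic acinar cell line. Every peak on chromosome 15 was taken from the 4 deposited peak lists, and peaks that overlap chr15:61000000-63500000 (mm9) were left out. This gave 890 member peaks of 11220 in all: 312 of 4031 in control replicate 1, 562 of 7112 in control replicate 2, 10 of 57 in EGF replicate 1 and 6 of 20 in EGF replicate 2. The left-out window held a further 13 and 22 peaks of control replicates 1 and 2, and 1 and 2 peaks of EGF replicates 1 and 2.

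The members were chosen by position and by having been called as peaks, and the chromosome was chosen with its peak number known. Peak number, density and the share called with EGF are therefore given as descriptions, with no test. ARID1A was mapped by chromatin immunoprecipitation with sequencing, in which DNA bound by the protein is pulled down with an antibody and read. All cells were starved of serum for about 14 h. The EGF group then received 40 ng/ml epidermal growth factor for 8 h, and the control group received 0.1% bovine serum albumin, with 2 libraries in each group. Whether separate cultures were used within a group is not in the labels, so the spread between them may be technical. All 4 libraries came from 1 established cell line, and markers of cell identity cannot be checked in peak lists.

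ARID1A is the large AT-rich interaction domain subunit of the BAF form of SWI/SNF, an ATP-driven complex that slides and evicts nucleosomes and so opens DNA to transcription factors. It is found mainly at enhancers and promoters, and its own domain binds DNA with little sequence preference. EGF acts through a receptor tyrosine kinase and the MAP kinase cascade. In the pancreas, signalling through this receptor is known for its part in the conversion of acinar cells to duct-like cells. No gene is named for any peak, since positions are in mm9 and no annotation of that build was used.

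Each list gives a peak's outline, its summit, and the fold and p of the summit. The number of whole reads at the summit, and the local input background in reads per 200 bp, were recovered from fold and p in all 4 lists. The mean ChIP depth per 200 bp was 1.18 reads (control replicate 1), 1.14 (control replicate 2), 1.06 (EGF replicate 1) and 1.23 (EGF replicate 2). The genome-wide input background was 0.771 for each control list but 0.506 for each EGF list. The weakest called peak had a −log10 p of 4.43 or 4.25 in a control list, against 7.07 or 8.00 in an EGF list. Input depth and the smallest called −log10 p thus follow the groups. They cannot be told apart from the treatment in any count of peaks given below. Whether the calling cutoff itself differed is not stated. The local input of a peak is the largest of several windows around its summit and never falls below the genome-wide value.

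In control cells the members ran nearly the whole length of the chromosome. The first member started at position 3197886 (control replicate 1) or 3197175 (control replicate 2), and the last ended at 103136108 or 103136221. Over that span, less the left-out window, there were 3.20 and 5.77 members per Mb. Chromosome 10, measured the same way, had 2.87 and 4.75 per Mb, and chromosome 11 had 2.54 and 4.91. The median distance between neighbouring members was 69.7 kb and 42.2 kb, with quartiles of 19.2 and 236 kb in control replicate 1 and of 9.74 and 123 kb in control replicate 2. On chromosome 10 the median distances were 102 and 49.3 kb, and on chromosome 11 they were 157 and 67.3 kb. The median was shortest on chromosome 15 in each control list among these 3 chromosomes, which were set side by side without a test.

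Members were bunched, with dense stretches and long empty ones. In bins of 10 Mb, density was lowest between 10 and 20 Mb, at 0.600 and 1.60 members per Mb in control replicates 1 and 2. It was 6.10 and 10.0 per Mb between 30 and 40 Mb, and 1.10 and 2.00 in the next bin. Between 70 and 80 Mb it reached 6.50 and 11.1. The last stretch, beyond 100 Mb, had 4.15 and 11.2 per Mb, and was the densest bin of control replicate 2 but the fifth densest of control replicate 1. Of the 98 windows of 1 Mb that lie clear of the left-out window, 34 and 29 held no member of control replicates 1 and 2, and 28 held none of either. At the other end, 23 windows with at least 10 members of control replicate 2 held 344 members, 62.3% of those in all such windows.

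**Figure D1:**
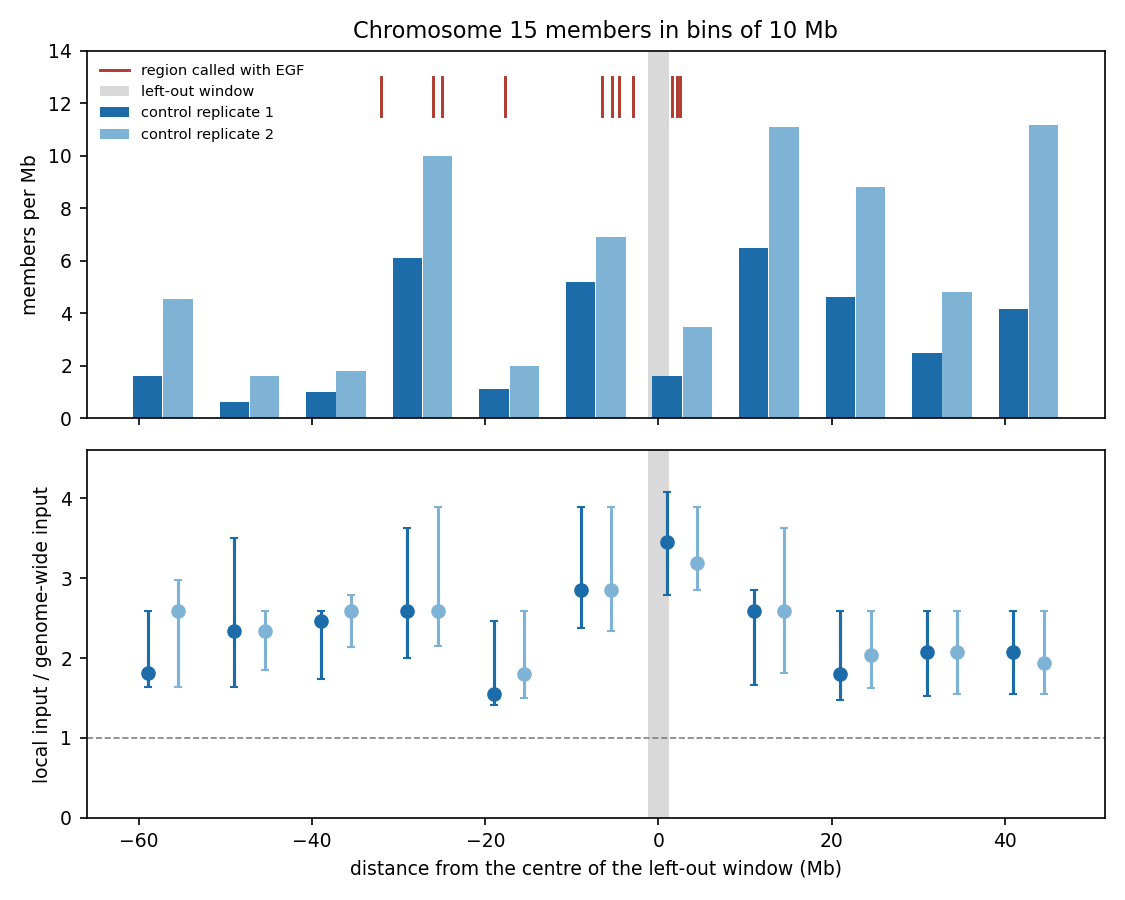
Members per Mb (upper panel) and median local input over genome-wide input with quartiles (lower panel) in bins of 10 Mb along chromosome 15, by distance from the centre of the left-out window (grey); red ticks mark the 11 regions called with EGF. Bars rise to 6.50 and 11.1 per Mb in the first full bin to the right of the window, and no red tick lies to the right of the cluster beside the window.

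The windows of 1 Mb with the most members shared by both control lists held 17, 13 and 10 of them. Between 58 and 59 Mb there were 19 and 26 members in control replicates 1 and 2, from 58000819 to 58913863 in the latter. Between 73 and 74 Mb there were 17 and 16, and between 34 and 35 Mb there were 10 and 20. The median local input, in multiples of the genome-wide value, was 3.37 and 3.50 in the first window, 2.98 and 3.14 in the second, and 2.59 in both lists in the third. None of the members in these 3 windows was called with EGF. Of all members of control replicate 1 shared with control replicate 2, 4.38% were called, and over the whole genome 2.05% of such peaks. At those shares few calls would be looked for among so few members.

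At a finer scale, 26.9% and 42.0% of members had a neighbour within 10 kb. This was between the shares on chromosome 10 (32.8% and 42.9%) and on chromosome 11 (21.1% and 37.6%). The members with such a neighbour formed 38 runs in control replicate 1 and 94 in control replicate 2, of at most 3 and 5 members. The 3 runs of 5 in control replicate 2 lay at chr15:38228451-38232327, chr15:58867936-58887093 and chr15:78661401-78675967, and spanned 3.88, 19.2 and 14.6 kb. Of their members, 1, 4 and 2 were also found in control replicate 1. The longest empty stretches of the merged control lists were chr15:12561570-20495589 (7.93 Mb), chr15:68197314-72437727 (4.24 Mb) and chr15:45302288-49445319 (4.14 Mb).

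Beside the left-out window, the nearest members on the left in control replicate 2 were chr15:59615279-59615544 and chr15:59479901-59480196, with 26 and 38 reads at the summit. The first peaks within it were chr15:61277889-61278262 and chr15:61771125-61771324, with 16 and 36 reads. The last peaks within it, chr15:62734355-62735004 and chr15:62766157-62766476, had 32 and 36 reads, and the first members to its right, chr15:63784869-63785231 and chr15:63788901-63789574, had 20 and 46. In control replicate 1 the members nearest the window had 24 and 29 reads on the left, and 46 and 44 on the right. In control replicate 2, summit reads at these positions thus ran from 16 to 36 inside the window and from 20 to 46 outside it. These edge peaks do not stand for the whole window. Its 22 peaks in that list had a median of 32 reads and a maximum of 91, against 21 and 77 for the 562 members.

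Local input was above the genome-wide value at nearly all members. Its median was 2.59 times the genome-wide value in each control list. Quartiles were 1.69 and 3.11 in control replicate 1, and 1.81 and 3.11 in control replicate 2. The median equals a rate of 2 input reads per 200 bp. Local input takes stepped values, and rests on few reads where the window used is a short one. Only 0.321% and 0.178% of members sat at the genome-wide value itself, against 13.2% and 14.3% of peaks on all other chromosomes. The median elsewhere was 1.30 times in each list; it was 1.56 times on chromosome 10 in both lists, and 1.46 and 1.56 times on chromosome 11. Along chromosome 15 the bin medians ran from 1.56 to 3.45 in control replicate 1 and from 1.80 to 3.19 in control replicate 2, lowest between 40 and 50 Mb and highest between 60 and 70 Mb in both. Both control lists have the same genome-wide input background, so these are not separate measures of the input.

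Summit reads had a median of 23 (control replicate 1) and 21 (control replicate 2), or 19.4 and 18.5 times the genome mean of the library, beside 18 reads in each list on other chromosomes. Divided by local input, the median was 8.42 and 7.82 on chromosome 15 outside the window, 10.1 and 9.71 on chromosome 10, and 10.6 and 10.5 on all other chromosomes. At least 10 times the local input was reached by 88 members (28.2%) and 135 members (24.0%) of the control lists, against 58.0% and 56.8% of the peaks elsewhere. Across members, reads and local input were correlated with Spearman rho = 0.589 (312 members) and 0.570 (562 members). A peak is called on its excess over local input, so a positive value follows in part from the call itself, and members of 1 library share its depth. Reads over local input fell with local input, at Spearman rho = −0.683 and −0.656 over the same members. Local input is the divisor there, so a negative value follows in part from the ratio itself. These values stand side by side without a test. The part of local input in the number and density of members, and in their lower reads over local input, was not tested.

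The median width was 312 and 296 bp in control replicates 1 and 2, with a smallest width of 200 bp in each and quartiles of 239 and 429 bp, and of 237 and 422 bp. On other chromosomes the medians were 285 and 287 bp. They were 305 and 296 bp on chromosome 10, and 280 and 288 bp on chromosome 11. A width of 500 bp or more was found in 55 members (17.6%) and 92 members (16.4%), against 10.4% and 12.5% elsewhere. Wider members had more reads at the summit, with Spearman rho = 0.532 and 0.559 over the 312 and 562 members.

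The widest member was chr15:73560520-73563770, with 3251 bp in control replicate 2 and 2996 bp in control replicate 1. It had 45 and 47 summit reads in control replicates 2 and 1, over a local input of 6.48 and 4.67 times the genome-wide value. The next by width in control replicate 2 was chr15:37362107-37363526, with 1420 bp. Control replicate 1 had 2 separate peaks there, of 560 and 350 bp. The third, chr15:12159527-12160666, spanned 1140 bp and had 34 reads in control replicate 2. It also met 2 peaks of control replicate 1, of 870 bp with 36 reads and of 317 bp. None of the 3 was called with EGF.

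**Figure D2:**
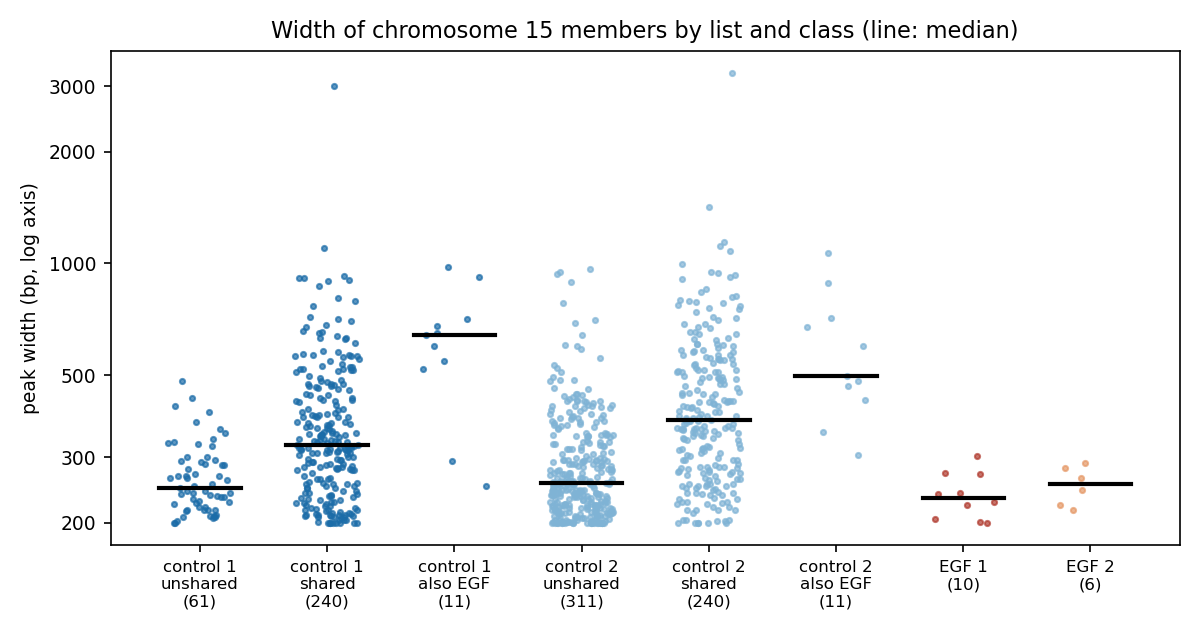
Width of each member on a log axis, by list and by whether it was unshared, shared by both control lists or also called with EGF; points are peaks, bars are medians and numbers in brackets are members. Control members also called with EGF have medians of 642 and 496 bp, while the EGF peaks at the same places stay at or below 303 bp.

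Most members of control replicate 1 were found in control replicate 2, while most members of the latter list were not shared. Of the 312 members of control replicate 1, 251 (80.4%, exact Clopper-Pearson 95% interval 75.6% to 84.7%) had an overlap of at least 1 bp with control replicate 2, against 71.3% of all peaks of that list. In the other direction 251 of 562 (44.7%, interval 40.5% to 48.9%) were shared, against 40.4% of all peaks. On other chromosomes the shares were 70.5% and 39.9%. They were 74.4% and 44.3% on chromosome 10, and 70.8% and 37.0% on chromosome 11. From control replicate 2, the share was thus nearly the same on chromosome 10 as among the members. Intervals cover counting error only, and peaks of 1 library are not independent. When 50% of both peaks had to overlap, 60.9% of the members of control replicate 1 were shared, and with summits within 200 bp 69.9% were.

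Shared and unshared members differed in their medians in each list, by values given without a test. In control replicate 1, shared members had a median width of 331 bp and 24 reads, and the 61 unshared ones 248 bp and 20 reads. In control replicate 2 these medians were 385 bp and 25 reads for shared members, and 256 bp and 20 reads for the 311 unshared ones. In control replicate 2 the median local input was 2.59 times the genome-wide value in both classes; in control replicate 1 it was 2.59 times for shared and 2.07 times for unshared members. The strongest member of control replicate 1 that was missing from the other list, chr15:59478902-59479202, had 32 reads and ranked 66th of 312 by score. The strongest one of control replicate 2, chr15:76509246-76510180, had 34 reads over 935 bp and ranked 19th of 562.

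Where both lists had a peak, their summits lay close together. Each of the 251 shared members of control replicate 1 was set against the highest-scoring member it overlapped, which gave 244 distinct members of control replicate 2. The distance had a median of 54 bp, and was at most 50 bp in 118 pairs (47.0%). Summit reads over the genome mean correlated at Pearson r = 0.769 on the log2 scale across these 251 pairs, which are not independent replicates. Control replicate 2 was higher by a median of 0.13 on the log2 scale, and the differences had an SD of 0.31. The plot of both control lists shows that spread around the line of equal values.

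**Figure D3:**
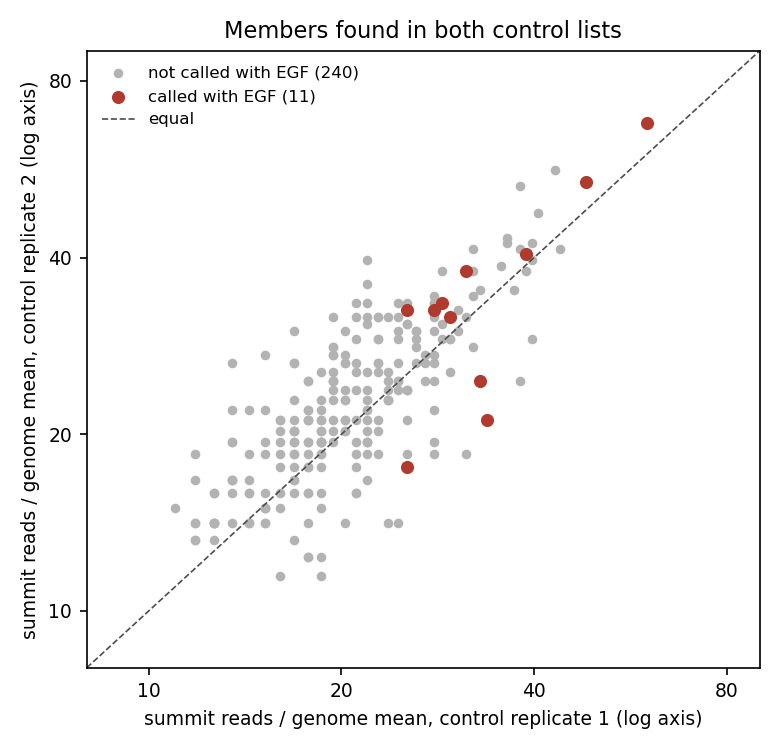
Summit reads over the genome mean of the library in control replicate 1 (x) and control replicate 2 (y), both on log axes, for the 251 members of control replicate 1 found in both control lists. Red points are the 11 called with EGF; they include the highest point, at 59.9 and 67.8, and the one second highest in control replicate 1, at 48.1 and 53.7, and others down to 25.3 on the x axis and 17.6 on the y axis.

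With EGF, 10 and 6 members were called, against 312 and 562 in the control lists. The mean was 437 ± 177 members without EGF and 8.00 ± 2.83 with it (SD, n = 2 each), 54.6-fold fewer, or −5.77 on the log2 scale. With the same bound on −log10 p in all lists, set at the highest of the 4 smallest called values, the log2 ratio was −5.12. That bound comes from the called peaks of an EGF list and is not a known cutoff. Control peaks covered 115 and 206 kb in all, EGF peaks 2.38 and 1.52 kb. Median widths were 233 and 255 bp in EGF replicates 1 and 2, lower than the 312 and 296 bp of the control lists. The group means were 304 ± 11.3 bp without EGF and 244 ± 15.2 bp with it (SD, n = 2 each), and the libraries of the groups did not overlap. The exact two-sided permutation p was 0.333; with 2 libraries a group none lower is possible, and 0.05 cannot be reached. The difference was −60.3 bp with all peaks and −111 bp with the same bound on −log10 p in all lists.

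The 16 EGF peaks fell into 11 regions, and all 11 were called in both control lists. Of these regions 5 were called in both EGF lists, 5 in EGF replicate 1 alone and 1 in EGF replicate 2 alone. They made up 11 of the 251 members in both control lists (4.38%, exact interval 2.21% to 7.71%), beside 2.05% of the shared peaks of control replicate 1 and 2.06% of those of control replicate 2 over the whole genome. On other chromosomes the share was 1.76%, on chromosome 10 it was 2.22% and on chromosome 11 2.37%. When 50% of both peaks had to overlap, 3 of 190 members of control replicate 1 were called (1.58%), beside 1.18% on other chromosomes. Counted from control replicate 2 it was 1 of 190 (0.526%), which is below the 0.837% on other chromosomes. EGF peaks had a median of 0.377 to 0.462 times the width of the control peak at the same place. Many could thus not meet this 50% rule even when they lay wholly inside a control peak. Leaving out EGF replicate 1 gave 2.39% (6 of 251), beside 12 of 2611 shared peaks of control replicate 1 on other chromosomes. Leaving out control replicate 1, which counts all 562 members of the other list, gave 1.96% (11 of 562). On other chromosomes 46 shared peaks and 1 unshared peak were called, of 6528 in that list.

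The smallest called −log10 p was higher in the EGF lists than in the control lists. The smallest −log10 q was 2.07 and 2.47 in EGF replicates 1 and 2, against 1.31 and 1.38 in control replicates 1 and 2. Each control member was therefore given the read value and input background of an EGF list, at the same reads over genome mean and the same local input over genome-wide input, and set against the smallest −log10 p called there; this was chosen after the data were seen. Of the 251 shared members, 115 by control replicate 1 and 144 by control replicate 2 passed at the settings of EGF replicate 1, and 78 and 108 at those of EGF replicate 2. Of those passing, 9 and 8 were called in EGF replicate 1 (7.83% and 5.56%), and 5 and 4 in EGF replicate 2 (6.41% and 3.70%). Some members were called with EGF although their control peak did not pass. By control replicate 1 there was 1 such member for each EGF list, and by control replicate 2 there were 2 for each. They are regions 3, 5, 7 and 11 of those described below. On other chromosomes 3.16% and 2.77% of the passing shared peaks were called in EGF replicate 1, and 1.43% and 1.02% in EGF replicate 2. The bound used is the weakest called peak of each EGF list, so it is an outcome of the calls and not a known setting. The true calling level and the local input in EGF cells at uncalled members are unknown, so a member missing from the EGF lists is not shown to lack ARID1A.

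All 11 regions lay in the middle of the chromosome, between 30.2 and 64.7 Mb. Before 30 Mb, 0 of 25 shared members of control replicate 1 were called with EGF. From 30 Mb to the left-out window 8 of 102 were called (7.84%), and from the window to 65 Mb 3 of 7. Beyond 65 Mb there were 117 shared members and 0 were called. Over the whole genome 2.05% of the shared peaks of control replicate 1 were called. At that share few calls would be looked for among 25 or 117 members. Of those 117, 39 passed at the settings of EGF replicate 1 and 19 at those of EGF replicate 2. Before 30 Mb, 16 and 14 of the 25 passed. From there to the window 56 and 42 of the 102 passed, and from the window to 65 Mb 4 and 3 of the 7. The median local input of control replicate 1 members was 2.33 times the genome-wide value before 30 Mb, 2.59 times from there to the window, 3.53 times from the window to 65 Mb and 2.09 times beyond. Its part in where the EGF calls lay was not tested. These boundaries were set after the regions were seen, so no limit is given for a share of 0.

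The strongest member of both control lists was region 2, chr15:36209600-36209838. Its summit had 71 and 77 reads in control replicates 1 and 2, and with EGF 28 and 35. Over the genome mean these were 63.9 ± 5.58 times for control and 27.4 ± 1.43 times for EGF (SD, n = 2 each), a ratio of 0.429. The EGF libraries were lower than each control library, and likewise over local input, with control values of 35.0 and 39.6 and EGF values of 13.1 and 14.1. Local input here was 1.71 times the genome-wide value in each control list and 2.02 times in each EGF list.

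Region 6, chr15:56928922-56929166, ranked second by score in both control lists. The control libraries had 57 and 61 reads, the EGF libraries 36 and 47. Reads over the genome mean were 50.9 ± 3.97 for control and 36.0 ± 2.99 for EGF (SD, n = 2 each), and over local input they were 26.5 and 29.6 against 15.6 and 17.5. The control peaks spanned 917 and 1064 bp and the EGF peaks 239 and 245 bp. The groups did not overlap under either scaling or in width.

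Region 11, chr15:64729937-64730206, was the one among the 5 regions called in every list that was higher with EGF under both scalings. There were 30 and 20 reads in control replicates 1 and 2, and with EGF 34 and 35. Reads over the genome mean were 21.5 ± 5.45 for control and 30.2 ± 2.56 for EGF (SD, n = 2 each), a ratio of 1.41. The closest pair of libraries across the groups stood at 25.3 (control replicate 1) and 28.4 (EGF replicate 2). Over local input the control values were 6.98 and 6.18, the EGF values 13.1 and 11.4. In control replicate 2 it was the weakest of the members called with EGF, ranked 401st of 562 by score.

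At regions 1 and 5 the EGF libraries were lower by the genome mean and higher by local input. Region 1, chr15:30215348-30215743, had 37 and 43 control reads and 32 and 29 EGF reads, or 34.6 ± 4.70 and 26.8 ± 4.67 times the genome mean (SD, n = 2 each). Over local input the control values were 8.61 and 9.74, the EGF values 19.5 and 11.9. Local input was 3.63 and 3.89 times the genome-wide value in control cells, but 1.54 and 1.98 times with EGF. Region 5, chr15:55754809-55755111, had 34 and 38 control reads and 29 and 34 EGF reads. Its reads over the genome mean were 31.1 ± 3.37 and 27.4 ± 0.192 (SD, n = 2 each), below the controls, while over local input it had 11.1 and 5.17 against 13.8 and 14.0, above them. The input used for its control peaks was 2.59 and 6.48 times the genome-wide value, and 1.98 times in both EGF lists. These are 2 and 5 input reads per 200 bp for the control peaks, and 1 in each EGF list.

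Over these 5 regions the median ratio of EGF to control was 0.776 by the genome mean, from 0.429 to 1.41, and 1.71 by local input, from 0.364 to 1.86. By the genome mean the EGF pair was below the control pair at 4 regions and above it at 1, with no overlap of libraries. By local input it was below at 2 and above at 3. The regions were chosen by being called in every list, so no test was made, and no direction held for all 5.

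The other 6 regions were each missing from 1 EGF list, and a missing call is not a value of 0. Region 3, chr15:37247961-37248160, had 40 and 24 reads in control replicates 1 and 2 and 26 in EGF replicate 1. Region 4, chr15:44521396-44521659, the one found in EGF replicate 2 alone, had 30 and 37 reads in the control lists and 25 in that EGF list. Region 7, chr15:57738295-57738534, had 33 and 37 control reads and 29 with EGF. In control replicate 1 it was the weakest member called with EGF, ranked 276th of 312 by score, over a local input of 7.78 times the genome-wide value. With EGF the local input there was 3.16 times.

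Region 8, chr15:59312301-59312501, had 39 and 28 reads in the control lists and 31 in EGF replicate 1. Region 9, chr15:63789034-63789257, had 46 reads in each control list and 32 with EGF. Region 10, chr15:64351053-64351257, had 35 and 36 control reads and 23 with EGF, the fewest of any EGF member. By the genome mean the single EGF value lay below both control values at regions 4, 7, 9 and 10, and between them at regions 3 and 8. By local input it lay below them at regions 4, 8 and 10, between them at region 3, and above them at regions 7 and 9. Region 7 had 8.64 with EGF against 3.58 and 7.40, region 9 had 9.53 against 8.32 and 7.82, and region 8 had 8.21 against 12.7 and 9.51. The order at regions 7, 8 and 9 thus turned on the scaling.

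**Figure D4:**
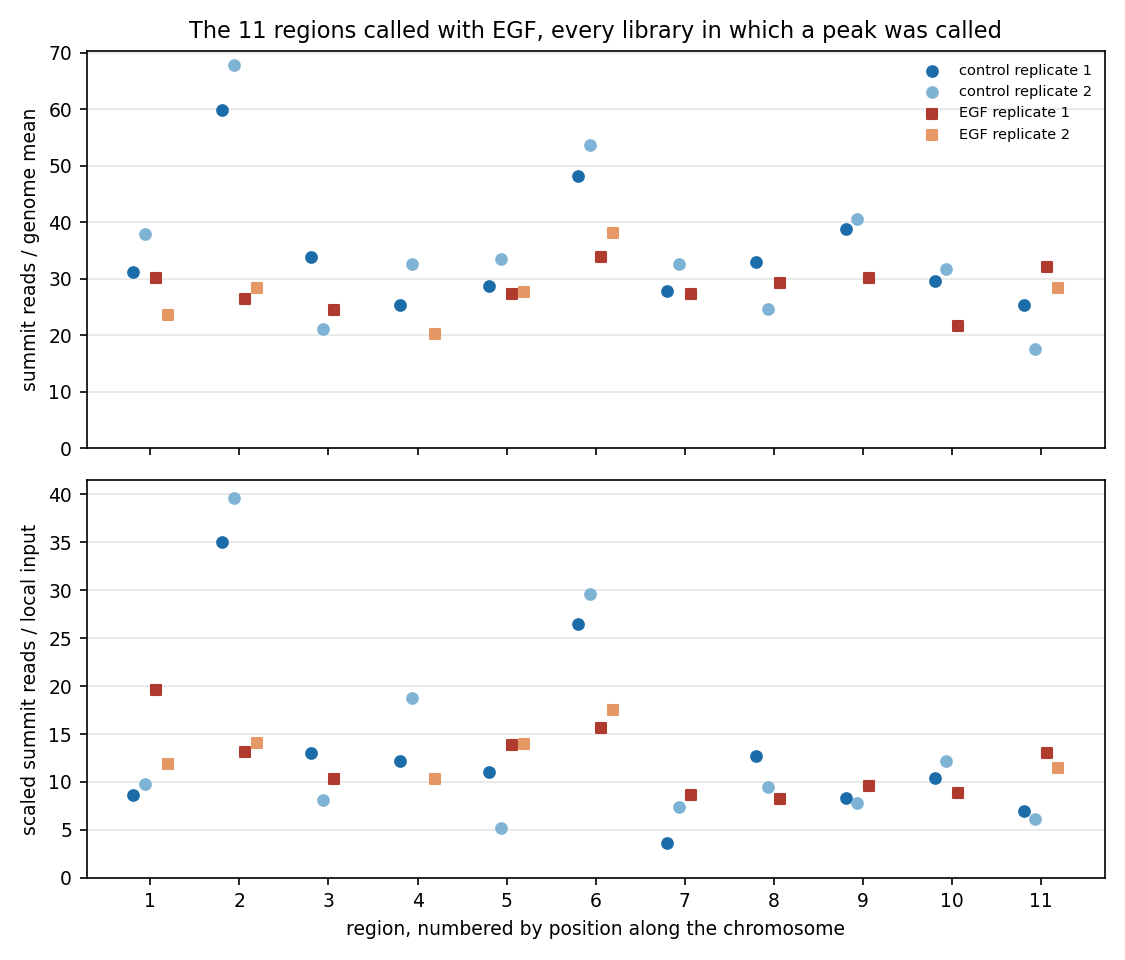
Summit reads over the genome mean (upper panel) and scaled summit reads over local input (lower panel) in every library with a peak at the 11 regions, numbered by position; circles are control and squares EGF libraries. Regions 2 and 6 stand out in the control libraries, at 59.9 and 67.8 and at 48.1 and 53.7 times the genome mean, while the EGF values of all regions lie between 20.3 and 38.1.

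EGF peaks sat inside the outline of the control peaks and near their summits. Of the 10 members of EGF replicate 1, 9 lay wholly within a control replicate 1 peak and 8 within a control replicate 2 peak, and of the 6 of EGF replicate 2, 5 did so in each. The EGF summit was a median of 62 and 51 bp from the summits of control replicates 1 and 2 in EGF replicate 1, and 24 and 27.5 bp in EGF replicate 2. The largest distance was 189 bp. EGF peaks had a median of 0.377 to 0.462 times the width of the control peak at the same place. A stricter calling level would narrow an outline as well. Whether the EGF lists had one is not stated, and its part in the width was not tested.

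The members called with EGF ranked high in the control lists, but many of the strongest control members were not among them. By score they stood at a mean percentile of 83.2 (control replicate 1) and 83.6 (control replicate 2), and 1 in each list was below the median. Among the top 20 members by score, those with an EGF call numbered 4 (control replicate 1) and 3 (control replicate 2). They had a median of 37 reads in each control list, against 24 and 25 in the shared members not called, and a median width of 642 and 496 bp against 325 and 379 bp. The median local input was 2.59 times the genome-wide value for both classes in both lists. As local input takes stepped values, equal medians do not show that the classes match.

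The 5 strongest shared members with no EGF call, by score in control replicate 2, followed regions 2 and 6 directly. The first, chr15:55358266-55358775, had 64 reads in control replicate 2 and 51 in control replicate 1, over a local input of 4.15 and 3.89 times the genome-wide value. The member chr15:58085576-58086108 had 60 and 45 reads, and chr15:34389390-34389789 had 54 and 48. These 3 had more control reads than each of the 9 regions called with EGF other than regions 2 and 6 in control replicate 2. In control replicate 1 the second of them, with 45 reads, was just under region 9, with 46.

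The fourth, chr15:7487793-7488200, stood on a low local input, 1.30 times the genome-wide value in each control list. It had 40 and 39 reads in control replicates 2 and 1, which was 27.2 and 25.4 times the local input. Over local input this was nearly as high as region 6 in both control lists. The fifth, chr15:58426357-58426702, had 45 reads in control replicate 2 but 26 in control replicate 1, where it ranked 99th by score.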

How the data were processed

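The 4 libraries were compared through the peak lists that the authors deposited, 1 per library, in the 10 columns of MACS2. Per the submitters' processing notes, tools were MACS2 2.1.1.20160309.0, Bowtie2 2.3.4.2, deepTools 3.0.2 and SAMtools, on mm9; no options are stated. In the lists as deposited, score is the −log10 q value times 10, rounded down. The deposited fold (a ratio) is scaled summit reads plus 1 over local input plus 1, and p and q, deposited as −log10, refer to that summit. Starts are printed counted from 1.

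Summit reads and local input were recovered with Python 3.11.15 and scipy 1.17.1, as the whole read number and input step that give the deposited fold and −log10 p within 2e-04. The steps assume reads extended to 200 bp and input windows of 1 and 10 kb. Every peak had 1 solution. The method was also run on peaks simulated from the recovered values with the same formula and steps, which cannot test the assumed extension and windows. After scaling to the input, 1 read was worth 0.651 and 0.680 in control replicates 1 and 2, and for EGF 0.477 and 0.410. No called summit had fewer than 11 or 10 reads (control) or 21 (EGF).

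Peaks were shared if they overlapped by at least 1 bp. Named regions are all those called with EGF, the 5 strongest shared members without an EGF call, the 3 widest, the 3 windows of 1 Mb with most shared members, the strongest unshared and weakest EGF-called member of each control list, the 3 longest gaps, and the peaks at the edges of the left-out window. The members, lists and tests were chosen with earlier results of these data known. Genes and sequences were not analysed here, because the annotation at hand is of another build.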

Additional observations from a re-analysis of the deposited data

How the results depend on the processing

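Over 8 results and 58 alternatives, 46 values met the bar for no change, 11 moved and 1 reversed. For width, the one result with a test, that bar was the same direction, since no p under 0.05 is possible; for the others it was the spread or interval of the reported value. The median log2 ratio of EGF to control summit reads at the 5 regions called in all lists was −0.37 by the genome mean and 0.77 by local input; the cause was not tested. The share of control replicate 1 members found in control replicate 2 was 60.9% with 50% of both peaks overlapping and 69.9% with summits within 200 bp. The share called with EGF was 1.58% with 50% of both peaks overlapping, a rule that many EGF peaks were too narrow to meet. It was 8.70% when only members passing at the settings of EGF replicate 1 were counted, a choice made after the data were seen. That value counts calls in either EGF list. For calls in EGF replicate 1 it was 7.83%, beside 3.16% on other chromosomes. With each library left out the share called with EGF ran from 1.96% to 3.98%. The mean score percentile of members called with EGF was 83.4, and 75.8 by fold, 82.6 by width, 88.9 by summit reads and 84.8 with no window left out; with each library left out it ran from 82.5 to 85.3. The log2 ratio of member number ran from −6.19 to −5.29, and the difference in width from −71.0 to −49.5 bp, with each library left out. With the same bound on −log10 p in all lists the log2 ratio of number was −5.12 and the width difference −111 bp; merging peaks within 500 bp gave −79.3 bp. With each library left out, median spacing ran from 42.2 to 69.7 kb.

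In a fit with a replicate block, the log2 ratio of number was −5.76, that of summit reads −0.37, and the width difference −60.3 bp (exact permutation p = 0.5, as low as 2 pairs allow). Nothing but a number pairs the libraries, and the deviations of same-numbered libraries at the 5 regions correlated at 0.195. With 2 libraries a group no p under 0.333 can arise. No called EGF peak had fewer than 21 reads, and the reads in EGF cells at sites that were not called are unknown.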
